A study of Mus musculus with 12 samples.

Results

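The 6 genes Tox, Tox2, Tcf7, Lef1, Sox4 and Sox13, which encode HMG-box transcription factors, were followed through RNA sequencing of mouse thymic invariant natural killer T (iNKT) cells. They were taken by gene symbol, and all 6 were found among the 48709 genes of the count table. The 12 libraries formed 4 groups of 3, given by genotype and by surface NK1.1, from thymus of C57BL/6J mice aged 7 weeks. The miR-155KI mice carried 2 copies of a Rosa26 miR-155 knock-in allele together with a Cd4-Cre transgene. This transgene acts from the double-positive thymocyte stage, in conventional T cells as well as in iNKT cells. The WT controls were littermates that carried the knock-in allele without Cre. CD8-bearing cells were removed with beads, and TCRβ+ CD1d-tetramer+ cells were then sorted by NK1.1 and CD44. The NK1.1- pool holds immature cells together with mature iNKT2 and iNKT17 cells, and the NK1.1+ pool holds mostly iNKT1 cells. Each library is a bulk sample, so fewer cells of a type and less RNA per cell cannot be told apart.

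The HMG box is a DNA-binding domain that bends DNA. TOX and TOX2 are nuclear factors induced by T cell receptor signals through calcineurin, and TOX is required for CD4 lineage T cells, iNKT cells among them. TCF1, the product of Tcf7, and LEF1 bind the same sequence and recruit either β-catenin or Groucho/TLE corepressors; both are needed for early iNKT development, and LEF1 is known for the expansion of iNKT cells and for iNKT2 cells. SOX4 and SOX13 are SOX family members known in IL-17-producing γδ T cells, and SOX4 also in the thymocytes from which iNKT cells come.

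The mature strand of the overexpressed microRNA is shown because its seed, bases 2 to 8 and in capitals, is what pairs with target messages. RefSeq places it on GRCm38.p6 at chr16:84714143-84714165, plus strand.
mmu-miR-155-5p: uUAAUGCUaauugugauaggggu
The annotated 3′ UTRs of the 6 genes (GENCODE M21, GRCm38) were searched for 7 or 8 base matches to this seed, and Tcf7 alone of the 6 held one. It is an 8 base match in 1 of the 2 annotated coding transcripts, at chr11:52252997-52253020 on the minus strand, with the match in capitals.
Tcf7 3′ UTR site: agctcaccAGCATTAAcaactagt
Of the 20508 genes of the table with an annotated 3′ UTR, 14.4% held a match of at least 7 bases and 3.44% the 8 base form AGCATTAA. A match is a description of the letters and not a measured site, and the level of Tcf7 in the knock-in libraries is given beside it further on.

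RefSeq promoter windows of 300 bases were given for 5 of the 6 genes, with none for Tox. The TCF/LEF motif ATCAAAG was searched on both strands in these 13 windows. It lay in 2 of the 5 Tox2 windows, which are 1 base apart and so hold the same copy, and in none of the windows of Tcf7, Lef1, Sox4 and Sox13. Over all 32851 windows, 3.73% held the motif. The Tox2 window is shown because Tox2 had the smallest adjusted p of the 6 between genotypes. It surrounds an internal start of the gene on GRCm38.p6 at chr2:163225203-163225502, plus strand, with the motif in capitals.
Tox2 internal promoter: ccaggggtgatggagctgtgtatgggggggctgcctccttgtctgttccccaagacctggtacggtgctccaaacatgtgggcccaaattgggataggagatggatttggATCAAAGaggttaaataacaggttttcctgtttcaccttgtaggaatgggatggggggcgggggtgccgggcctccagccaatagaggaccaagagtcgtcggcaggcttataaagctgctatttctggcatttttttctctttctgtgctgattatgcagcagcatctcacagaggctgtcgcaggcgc

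On GRCm38 the genes lie at chr4:6686353-6991557 (Tox), chr2:163203125-163324170 (Tox2), chr11:52252371-52283014 (Tcf7), chr3:131110471-131224356 (Lef1), chr13:28948919-28953713 (Sox4) and chr1:133382303-133424377 (Sox13). Annotated antisense or opposite-strand genes share 260 exon bases with Tox, 1208 with Lef1 and 2616 with Sox4, and the sources used here do not say whether counting used strand. Gm11802, the partner of Tox, had 0 to 15 reads per library against 1724 or more for Tox, and the partners of Lef1 and Sox4 had 0 reads in every library.

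The libraries held 12819476 to 20518257 counted reads, with a median of 18066119.5. Mir155hg, the host transcript of miR-155, stood at 9.65 to 13.7 CPM in the WT libraries and 95.2 to 144 CPM in the miR-155KI libraries. The 9 T and iNKT markers summed to 5816 to 7222 CPM in every library. WT replicate 1 of both pools differed from the other WT libraries in sex-linked RNA, with Xist at 12.6 and 11.4 CPM against 135 to 237 CPM, while the miR-155KI libraries had 8.19 to 35.0 CPM. The genotypes therefore also differ in sex-linked RNA, and results are given below with a covariate for it and against WT replicate 1 alone. Replicate 1 of miR-155KI NK1.1+ had double-positive thymocyte markers at a summed 293 CPM, against 32.5 to 94.7 CPM in the other 11 libraries. Nothing in the sources ties a library to a named animal, so p-values reflect only how these libraries vary. That spread may be technical, although the WT libraries differed in sex-linked RNA as given above.

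In each genotype 5 of the 6 factors were called lower in NK1.1+ than in NK1.1- cells, and 2 were called higher in miR-155KI than in WT NK1.1- cells. Levels are read counts scaled to library size (CPM) with TMM scaling over the 12 libraries, differences are log2 fold changes from edgeR's quasi-likelihood test, and a gene was called at a Benjamini-Hochberg adjusted p under 0.05 over all genes tested. In NK1.1- cells Tox2 and Lef1 were called higher and none lower, 2 of 6 where 3.44% of all 13304 genes were called either way and 1.93% higher. The 3 miR-155KI values lay wholly outside the 3 WT values for 5 of the 6 factors (4 higher, 1 lower), against 23.1% of all genes. In NK1.1+ cells edgeR called 0 of 6 between genotypes, where 0.0231% of 12991 genes were called. By edgeR 1 of 6 had an unadjusted p under 0.05, as had 1539 of the 12991 genes. DESeq2 and voom called 0 of 6, where they called 316 of 14133 and 1 of 12991 genes. Lef1 was the single factor whose NK1.1+ groups did not overlap, against 16.8% of all genes.

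Between pools, Tox, Tox2, Tcf7, Lef1 and Sox4 were called lower in WT NK1.1+ cells, 5 of 6 where 20.8% of 13555 genes were called and 10.9% were called lower. All 6 were lower without overlap, as were 18.6% of all genes. In miR-155KI cells Tox, Tox2, Tcf7, Lef1 and Sox13 were called lower, again 5 of 6, where 14.1% of 12942 genes were called and 6.15% were called lower. On the deposited CPM scale the split of all miR-155KI calls moved from 1025 higher and 796 lower to 753 higher and 1118 lower, and the 5 called factors kept their direction. Without overlap, 5 factors were lower in miR-155KI cells, against 17.1% of all genes. The pool and genotype comparisons share libraries, so they are not separate evidence for one another.

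**Figure D1:**
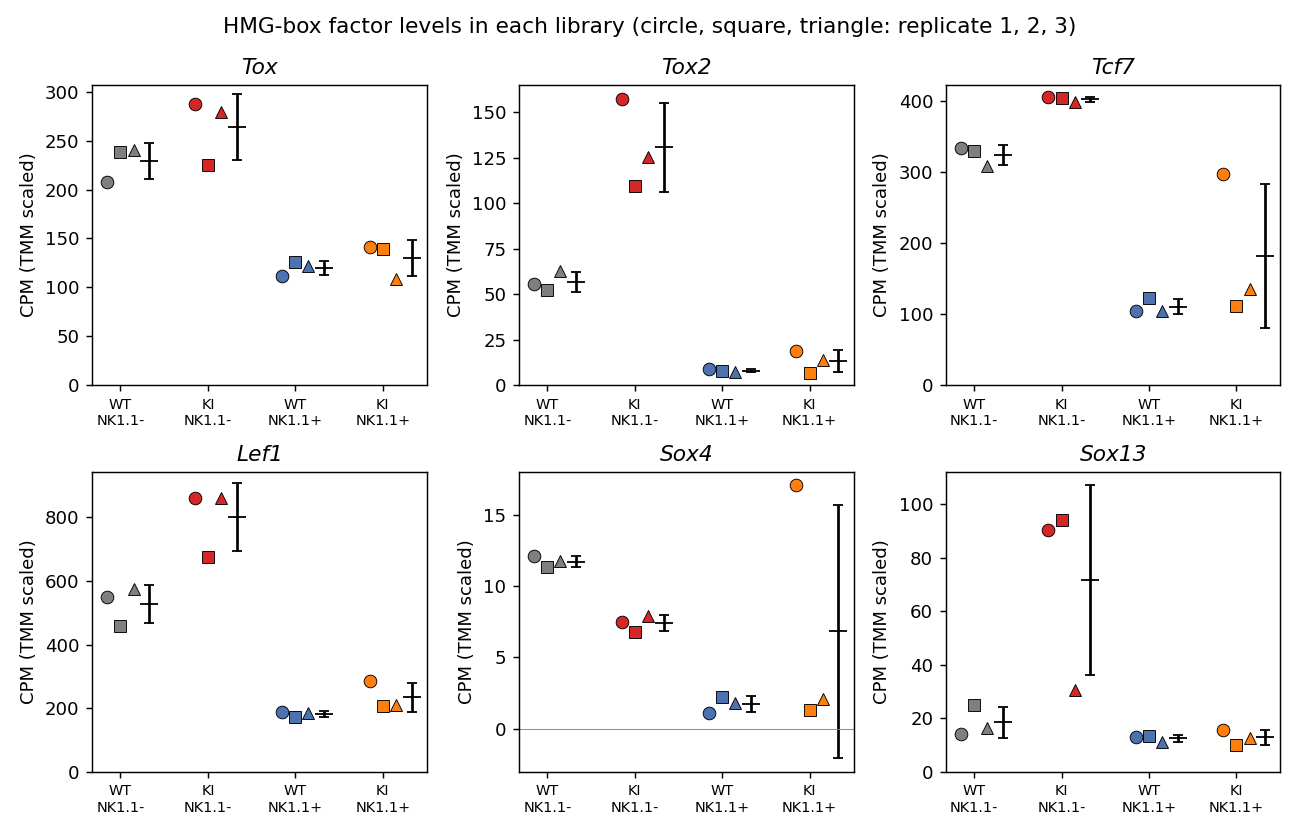
Level of each factor in each library (y axis, CPM with TMM scaling) by group (x axis), with one symbol per replicate and the mean ± SD beside each group (n = 3). Tox2 and Lef1 are highest in all 3 miR-155KI NK1.1- libraries, while Sox4 at 17.0 CPM and Tcf7 at 298 CPM in miR-155KI NK1.1+ rest on replicate 1.

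TOX differed between pools and little between genotypes. Tox stood at 208, 239 and 241 CPM in the WT NK1.1- libraries and at 287, 225 and 279 CPM in miR-155KI NK1.1-. In the NK1.1+ pool it stood at 112, 126 and 121 CPM in WT and at 141, 140 and 109 CPM in miR-155KI. The pools were apart in both genotypes, whereas the genotypes overlapped in both pools. Tox fell by 0.97 on the log2 scale from NK1.1- to NK1.1+ cells in WT (SE 0.12, adjusted p = 0.000232) and by 1.02 in miR-155KI (SE 0.15, adjusted p = 0.00152). The genotype difference was 0.18 in NK1.1- cells (SE 0.12, adjusted p = 0.453) and 0.10 in NK1.1+ cells (SE 0.15, adjusted p = 0.848). Of the 6 factors, Tox had the smallest pool difference among those called in each genotype.

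Its relative Tox2 had the smallest adjusted p of the 6 between genotypes in NK1.1- cells, though not the largest difference. Tox2 had 55.3, 52.2 and 62.5 CPM in WT NK1.1- cells and 157, 109 and 125 CPM in miR-155KI NK1.1- cells. Every knock-in library was above every WT library, and the mean went from 56.7 ± 5.26 to 131 ± 24.5 CPM (SD, n = 3). The log2 fold change was 1.19 (SE 0.14), a 2.28-fold rise, with an adjusted p of 0.000636 and rank 29 by p among 13304 genes. It was called in all 16 alternative analyses, and with the ratio of Y-linked to Xist RNA as a covariate the difference was 1.20 (adjusted p = 0.0281). Against WT replicate 1 alone, the WT library with low Xist RNA like the knock-in, it was 1.25, a value with no spread on the WT side.

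In the NK1.1+ pool Tox2 was low in both genotypes. The values were 8.83, 7.47 and 7.11 CPM in WT and 18.8, 6.85 and 14.0 CPM in miR-155KI. These groups overlapped through miR-155KI replicate 2, and the log2 difference of 0.75 (SE 0.41) was not called (adjusted p = 0.509). From NK1.1- to NK1.1+ cells Tox2 fell by 2.89 in WT (SE 0.17, adjusted p = 4.60e-06) and by 3.31 in miR-155KI (SE 0.32, adjusted p = 0.000169), so that WT NK1.1+ cells had 0.135 times and miR-155KI NK1.1+ cells 0.101 times the NK1.1- level. These were the largest pool differences among the 6 factors.

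**Figure D2:**
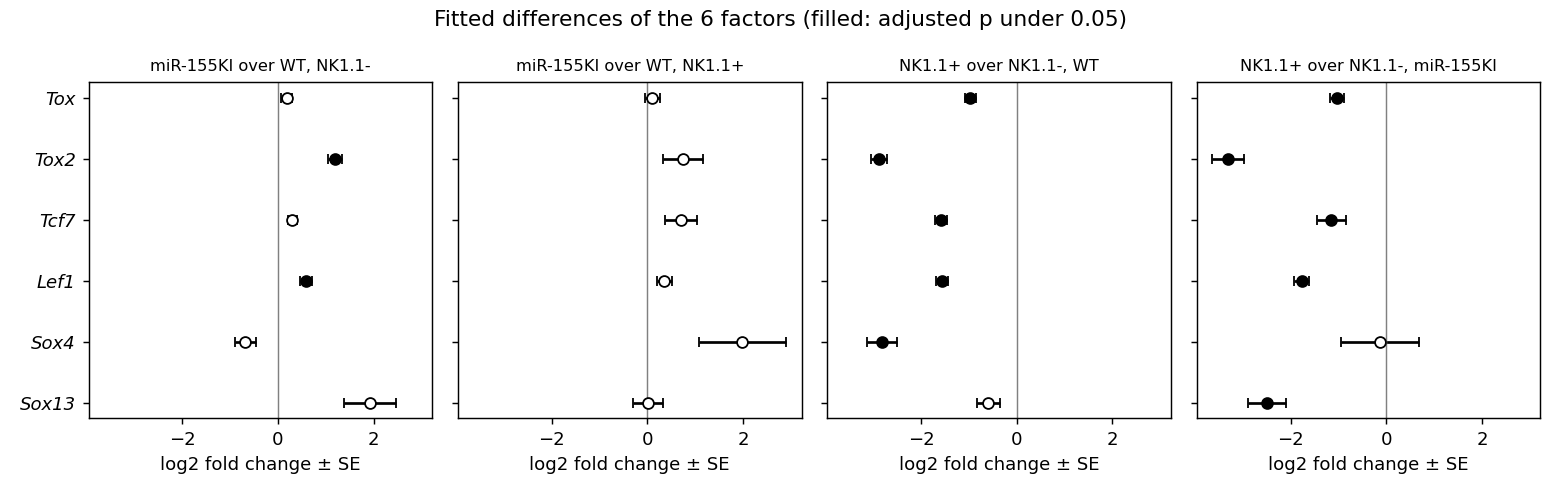
Log2 fold change of each factor with its standard error (x axis) in the 4 two-group comparisons, with filled points for an adjusted p under 0.05. All points of the pool panels lie left of 0, from -0.12 for Sox4 in miR-155KI, whose bar (SE 0.82) crosses 0, down to -3.31 for Tox2 in miR-155KI. The genotype panel in NK1.1- cells has 2 filled points, Tox2 at 1.19 and Lef1 at 0.58.

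TCF1 transcripts varied little between replicates in the NK1.1- pool. Tcf7 had 334, 330 and 309 CPM in WT NK1.1- cells and 405, 405 and 399 CPM in miR-155KI NK1.1- cells. The groups did not overlap, and the difference of 0.29 (SE 0.09) missed the threshold (adjusted p = 0.112). Tcf7 carries the 8 base seed match shown above, and every knock-in NK1.1- library had more Tcf7 RNA than every WT library. Whether miR-155 acts on Tcf7 was not tested.

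In WT NK1.1+ cells Tcf7 stood at 105, 123 and 104 CPM, and it fell by 1.59 from the NK1.1- pool (SE 0.12, adjusted p = 1.335e-05). In miR-155KI NK1.1+ cells it had 298, 111 and 136 CPM. Replicate 1 stood far above the others and near the NK1.1- level, and replicate 2 lay within the WT range. The genotype difference in NK1.1+ cells was 0.70 (SE 0.32, adjusted p = 0.437), and 0.16 without that library. The fall between pools in miR-155KI was 1.15 (SE 0.30, adjusted p = 0.0320). It was 1.72 without miR-155KI NK1.1+ replicate 1 (adjusted p = 6.88e-05), and leaving out any 1 of the other 5 libraries raised the adjusted p above the threshold (0.0649 to 0.110).

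Lef1 followed Tox2 in direction at a higher count. Lef1 had 548, 459 and 575 CPM in WT NK1.1- cells and 862, 677 and 862 CPM in miR-155KI NK1.1- cells. All knock-in values exceeded all WT values, with means of 528 ± 60.5 and 800.3 ± 107 CPM (SD, n = 3). The log2 fold change was 0.58 (SE 0.12), a 1.5-fold rise with an adjusted p of 0.0175. The call was lost in 6 of the 16 alternatives. These were the fits without WT replicate 2 (adjusted p = 0.0849), miR-155KI replicate 1 (0.125) or miR-155KI replicate 3 (0.0972), on all 12 libraries (0.0608), with the covariate for sex-linked RNA (0.257), and against WT replicate 1 alone, where the difference was 0.55 with no spread on the WT side. The direction was the same in all 16 alternatives, from 0.51 to 0.68.

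In the NK1.1+ pool Lef1 stood at 188, 171 and 186 CPM in WT and 287, 207 and 211 CPM in miR-155KI. The knock-in values were above the WT values without overlap, with replicate 1 the highest. The difference was 0.35 (SE 0.16, adjusted p = 0.408). Lef1 fell between pools by 1.57 in WT (SE 0.12, adjusted p = 1.45e-05) and by 1.77 in miR-155KI (SE 0.16, adjusted p = 9.91e-05).

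Sox4 had the lowest mean level of the 6 in every group, in CPM and per length. Its values were 12.1, 11.3 and 11.7 CPM in WT NK1.1- cells and 7.47, 6.77 and 7.92 CPM in miR-155KI NK1.1- cells, from 90 to 210 reads per library. It was the single factor whose knock-in NK1.1- values were all lower, by 0.68 on the log2 scale (a log2 fold change of -0.68, SE 0.22), and this missed the threshold (adjusted p = 0.109). In WT NK1.1+ cells it was near the floor of these factors at 1.08, 2.22 and 1.80 CPM, 21 to 38 reads, and it fell by 2.81 from the NK1.1- pool (SE 0.32, adjusted p = 0.000117).

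Replicate 1 decided Sox4 in the knock-in NK1.1+ pool. The 3 values were 17.0, 1.29 and 2.08 CPM, so replicate 1 was the highest Sox4 value of all 12 libraries and the other two lay in the WT range. With that library the genotype difference was 1.98 (SE 0.91, adjusted p = 0.430), and without it -0.0094 (adjusted p = 0.998). The pool difference in miR-155KI was -0.12 with it (SE 0.82, adjusted p = 0.945) and -2.14 without it (adjusted p = 0.0203). The same library had the highest level of 7 of the 8 double-positive thymocyte markers. Dntt, the terminal transferase of antigen receptor rearrangement, stood at 107 CPM there against at most 6.44 CPM elsewhere, and Arpp21 at 43.6 CPM against at most 3.98. None of the 8 markers was at 0 in every library of a group. The part of these cells in the Sox4, Tcf7 and Lef1 values of that library was not tested.

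**Figure D3:**
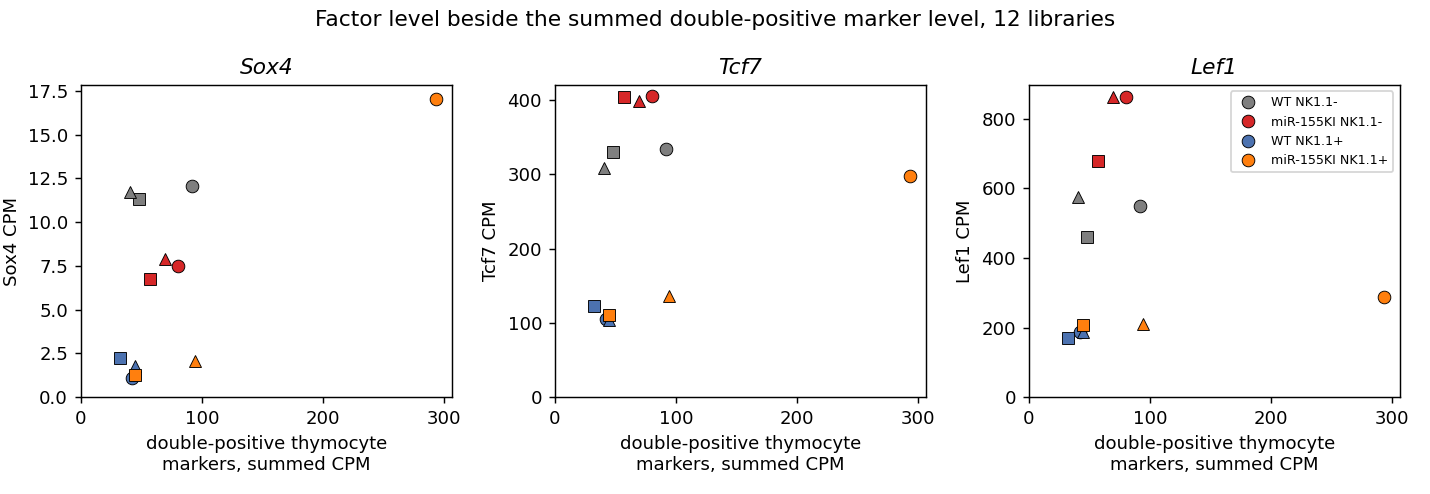
Levels of Sox4, Tcf7 and Lef1 (y axes, CPM) against the summed CPM of 8 double-positive thymocyte markers (x axis) in the 12 libraries, one point per library with symbols for the replicates as above. MiR-155KI NK1.1+ replicate 1 stands alone at 293 CPM of markers, with Sox4 at 17.0 CPM, Tcf7 at 298 CPM and Lef1 at 287 CPM.

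Sox13 had the largest fitted genotype difference of the 6 in NK1.1- cells and the widest spread. Sox13 stood at 14.0, 25.0 and 16.5 CPM in WT NK1.1- cells and at 90.3, 94.2 and 30.7 CPM in miR-155KI NK1.1- cells. All knock-in values were above all WT values, but replicate 3 stood well below the other two. The log2 fold change was 1.93 (SE 0.54), a 3.81-fold difference that edgeR did not call (adjusted p = 0.164). DESeq2 called it (adjusted p = 0.00911), as did edgeR on all 12 libraries (0.0110) and edgeR without miR-155KI replicate 3 (2.30, adjusted p = 0.000612). Over the 16 alternatives the adjusted p ran from 0.000612 to 0.605 and the difference from 1.68 to 2.37.

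In the NK1.1+ pool Sox13 overlapped between genotypes, at 13.0, 13.4 and 11.1 CPM in WT and 15.7, 10.2 and 12.6 CPM in miR-155KI. The difference was 0.02 (SE 0.31, adjusted p = 0.988). The pool difference was -0.60 in WT (SE 0.24, adjusted p = 0.105), without overlap, and Sox13 fell by 2.49 in miR-155KI (SE 0.39, adjusted p = 0.00286).

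Whether the genotype difference itself differed between pools was tested on all 12 libraries as an interaction. EdgeR called 0 of the 6 factors, where 0.0278% of 14401 genes were called. Sox13 had an unadjusted p of 0.00129 (log2 difference of NK1.1+ minus NK1.1- genotype effects -1.92, SE 0.49, adjusted p = 0.280), and Sox4 0.0160 (2.66, SE 0.98, adjusted p = 0.477), so 2 of 6 were under 0.05 unadjusted and 1167 of all genes were. DESeq2 called Sox13 (adjusted p = 0.0181), as did edgeR without miR-155KI NK1.1- replicate 3 (0.0260). Without miR-155KI NK1.1+ replicate 1 the Sox4 interaction was 0.68. The remaining 4 factors had adjusted p from 0.829 to 0.955.

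Levels were compared between factors per length, as CPM per kilobase of annotated exon, which assumes that the deposited counts used these exons. Tcf7 led in every group, at 124 ± 5.16 per kilobase in WT NK1.1- cells and 154 ± 1.40 in miR-155KI NK1.1- cells (SD, n = 3). Lef1 came second in every group, at 60.0 ± 6.88 and 91.1 ± 12.2 in the same groups. The order of Tox and Tox2 changed with genotype in NK1.1- cells: Tox stood at 30.1 ± 2.40 and Tox2 at 16.7 ± 1.55 in WT, and Tox2 at 38.4 ± 7.22 and Tox at 34.7 ± 4.42 in miR-155KI, where they overlapped. Sox4 was last in all 4 groups, from 0.355 ± 0.120 in WT NK1.1+ to 2.44 ± 0.0783 in WT NK1.1- cells, and Sox13 and Tox2 overlapped in miR-155KI NK1.1+ cells (2.97 ± 0.636 and 3.89 ± 1.77).

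The genes most like each factor over the 12 libraries, by Pearson's r of log2 CPM among 8282 expressed genes, are given as a description, since the libraries fall into 2 pools of different cells. For Tox they were Nos1 (0.979), Lmo4 (0.977) and Eng (0.976), and for Tox2 Slc15a1 (0.988), Igfbp7 (0.987) and Il17rb (0.986), the IL-25 receptor chain that marks iNKT2 cells. Lef1 shared Il17rb (0.987) after Mapk11 (0.991) and Igfbp4 (0.988). Tcf7 was most like Dhrs3 (0.980), Cd200 (0.975) and Dap3 (0.973). Sox4 was most like Pole (0.965), Ankle1 (0.951) and Aurka (0.949), of which Pole encodes a DNA polymerase and Aurka a mitotic kinase.

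For Sox13 they were Ptprv (0.950), Prg4 (0.910) and Cxcr5 (0.908). Each of these was lowest in miR-155KI replicate 3 among the knock-in NK1.1- libraries. This can follow from their choice by likeness to Sox13 over the same libraries, and is no separate observation. Prg4 had 181, 180 and 85.8 CPM, Ptprv 214, 197 and 119 CPM and Cxcr5 50.3, 43.6 and 26.5 CPM. Among the factors themselves, Tox2 and Lef1 were the most alike pair (r = 0.989 over 12 libraries).

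Other HMG-box genes were not called between genotypes in NK1.1- cells by edgeR. Of 24 other HMG-box transcription factor genes 8 were expressed enough to test and 0 were called (2 at an unadjusted p under 0.05, 0 by DESeq2 and by voom), with a median log2 difference of -0.22 against -0.0010 over all genes. Of all 13304 genes, 3.44% were called by edgeR and 2457 had an unadjusted p under 0.05. Hbp1, a repressor, had 71.2 CPM in knock-in and 132 CPM in WT cells (-0.92, adjusted p = 0.247), and Tcf7l1, another TCF gene, 1.89 and 3.93 CPM (-1.07, adjusted p = 0.142). The study lists Hbp1 among the predicted miR-155 targets that it reports as repressed in miR-155KI NK1.1- cells. Here Hbp1 was lower in mean without being called. Of 13 tested HMG-box chromatin genes 0 were called by edgeR (2 unadjusted, 1 by DESeq2, 0 by voom), with Hmg20b closest (0.55, adjusted p = 0.0657). Between WT pools 20.8% of all genes were called and 10.9% were called lower. Bbx rose there by 0.94, and Sox5 and Tcf7l1 fell by 2.19 and 2.37. Of 13 chromatin genes 4 fell, Hmgb1 (by 0.51), Hmgb2 (0.95), Hmgb3 (1.09) and Wdhd1 (1.02). In miR-155KI cells edgeR called Bbx alone of both lists between pools (1.07, adjusted p = 0.0429), where 14.1% of all genes were called. DESeq2 and voom each called 2 of the 8 transcription factor genes and 0 chromatin genes there.

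The partners of TCF1 and LEF1 were counted from a list of Wnt, β-catenin and Groucho/TLE genes. Of 31 tested in NK1.1- cells edgeR called 0 between genotypes (6 unadjusted, 1 by DESeq2, 0 by voom), with a median of -0.05. Over all 13304 genes, 3.44% were called by edgeR and 2457 had an unadjusted p under 0.05. Axin2, a feedback target of β-catenin with TCF/LEF, had 14.0 CPM in knock-in and 20.5 CPM in WT cells (-0.57, adjusted p = 0.120), the opposite sign to Lef1 and Tcf7. Jup, which encodes γ-catenin, stood at 93.7 and 62.0 CPM (0.58, adjusted p = 0.121). Between WT pools 6 of 32 were called, close to the 20.8% of all genes. Of these 3 rose, the corepressor genes Tle2 (1.83) and Tle4 (0.58) among them, and 3 fell, Jup (by 1.29) and the β-catenin cofactor Bcl9 (by 1.09) among them. In miR-155KI cells 0 rose and 4 of 31 fell, where 14.1% of all genes were called, including Jup (by 1.76) and Bcl9 (by 1.73).

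Genes linked with TCF1 and LEF1 in T cells were counted in the same way. Of 12 tested, 4 rose in miR-155KI NK1.1- cells and 0 fell (median 0.31), where 3.44% of all genes were called: Slamf6, a SLAM family receptor (0.83, adjusted p = 0.00148), Cxcr5, a follicular homing receptor (1.95, adjusted p = 0.00252), Bcl6, a transcriptional repressor that drives follicular helper cell differentiation (0.94, adjusted p = 0.0238), and Id3, an inhibitor of E proteins (0.53, adjusted p = 0.0496). Between WT pools 8 of the 12 fell and 2 rose (median -1.72), where 20.8% of all genes were called, with Ccr7 falling by 3.15 and Id3 by 2.25, while Bcl6 rose by 0.74. Between miR-155KI pools 5 fell and 1 rose, where 14.1% of all genes were called. Cxcr5 and Id3 fell by 3.79 and 1.77.

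For TOX the list held calcineurin, NFAT and inhibitory receptor genes. Of 15 tested in NK1.1- cells 1 rose in miR-155KI and 0 fell, where 3.44% of all genes were called. That gene was Pdcd1, which encodes PD-1, at 582 CPM against 294 CPM in WT (0.97, adjusted p = 0.000217). Nr4a1 and Nr4a2, receptor-induced factors, had 205 and 7.02 CPM against 617 and 18.5 CPM, with log2 differences of -1.62 and -1.44 that were not called (adjusted p = 0.185 and 0.180). Between WT pools 4 of 15 rose and 2 fell, where 20.8% of all genes were called. Entpd1 (2.53) and the calcineurin subunit gene Ppp3cc (1.86) rose most, and Pdcd1 fell by 1.17. Between miR-155KI pools 3 of 15 rose and 1 fell, where 14.1% of all genes were called.

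Genes of IL-17-producing innate-like T cells, where SOX13 and SOX4 are best known, mostly went the other way from Sox13 and the same way as Sox4 in NK1.1- cells. Of 14 tested, 10 fell and 0 rose in miR-155KI (median -2.26), where 3.44% of all genes were called. Sox13 had 1.93 and Sox4 -0.68 in that comparison, and neither was called by edgeR (adjusted p = 0.164 and 0.109). Il17re, a chain of the IL-17C receptor, fell by 2.81 (adjusted p = 0.000114), Il1r1 by 2.81 (adjusted p = 0.00315) and Tmem176a by 1.89 (adjusted p = 0.00111). The scavenger receptor gene Cd163l1 was not called (0.07, adjusted p = 0.863). Between WT pools 8 of 14 fell and 1 rose, where 20.8% of all genes were called. Blk fell by 2.27 and Cd163l1 by 1.39. Between miR-155KI pools 3 of 13 fell, where 14.1% of all genes were called. Over the 6 lists edgeR called 0 of 91 genes between genotypes in NK1.1+ cells. Of these 22 had an unadjusted p under 0.05, as had 1539 of all 12991 genes. In the interaction edgeR called 0 of 98 list genes, with 17 under 0.05 unadjusted against 1167 of all 14401. Voom called 0 list genes in both. DESeq2 called 1 Wnt pathway gene, 2 genes linked with TCF1 and LEF1 and 2 linked with TOX in the first, and 2 genes linked with TCF1 and LEF1 and 4 of these IL-17 genes in the second.

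**Figure D4:**
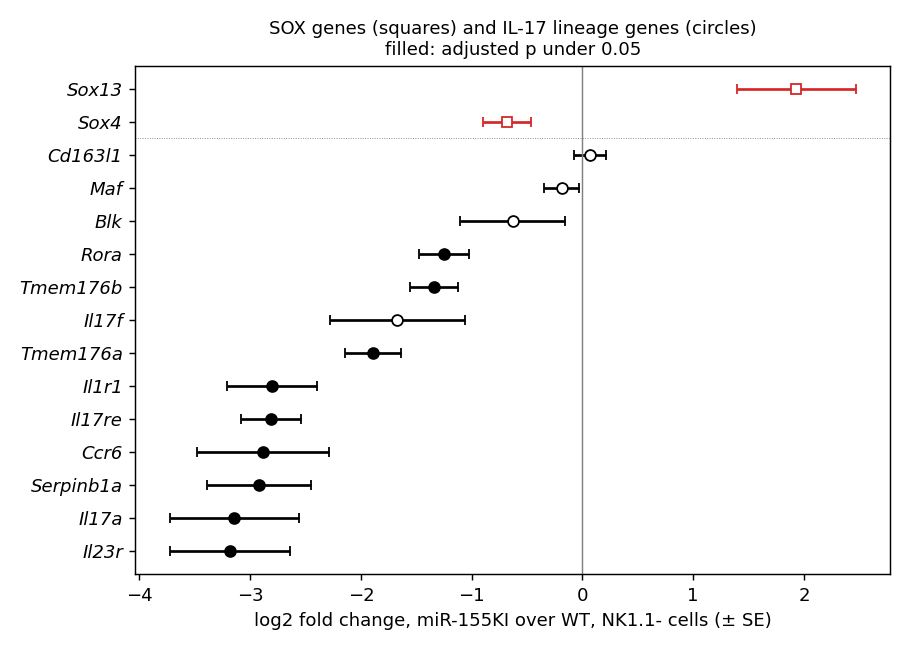
Log2 fold change of miR-155KI over WT in NK1.1- cells with its standard error (x axis) for Sox13 and Sox4 (squares) and 13 of the 14 genes of IL-17-producing cells (circles), filled where the adjusted p was under 0.05. Sox13 lies at 1.93 and Sox4 at -0.68, both unfilled, and 12 of the 13 circles lie below 0, Il17re at -2.81.

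Markers of the iNKT subsets moved in the same NK1.1- libraries as the factors. The 6 iNKT2 markers summed to 1571 to 1898 CPM in WT and 2459 to 2621 CPM in miR-155KI, 6 iNKT17 markers to 109 to 169 CPM and 29.3 to 55.1 CPM, and 7 iNKT1 markers to 1063 to 1296 CPM and 649 to 797 CPM. None of these subset markers was at 0 in every library of a group. Markers of γδ T cells, which are known to express Sox13, summed to 430 to 684 CPM in WT and 771 to 1024 CPM in miR-155KI NK1.1- cells. Among the knock-in NK1.1- libraries, replicate 3 had the lowest γδ marker sum, at 771 CPM. The same library also had the lowest iNKT17 marker sum, at 29.3 CPM. Its iNKT2 and iNKT1 marker sums were the highest of the knock-in NK1.1- libraries, at 2621 and 797 CPM. Of 5 γδ markers tested in NK1.1- cells, Tcrg-C4 and Trgv2 rose (by 1.00 and 0.62), where 3.44% of all genes were called. Trdc, the δ chain constant gene, had 0.558 to 1.95 CPM in WT and 0.589 to 1.29 CPM in miR-155KI. In NK1.1+ cells the γδ marker sum was 473 to 845 CPM in WT and 791 to 929 CPM in miR-155KI. Sox13 in that pool stood at 11.1 to 13.4 CPM in WT and 10.2 to 15.7 CPM in miR-155KI. Macrophage and dendritic cell markers summed to 210 to 858 CPM in miR-155KI NK1.1+ and 36.1 to 40.8 CPM in WT NK1.1+. Their part in the values of the 6 factors was not tested.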

How the data were processed

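Raw counts and CPM were deposited by the authors as 2 tables of 48709 genes by 12 libraries, both used here. The submitters' processing notes name bcl2fastq 2.17.1.14, GRCm38 and mm10; no source used here names the aligner or the counter. The labels name a SMART-Seq kit and the study's methods a TruSeq kit, and the methods speak of pooled replicates where the tables hold 3 libraries per group. The deposited CPM signal equals each count times 1 factor per library, with library sums of 899833 to 1091960. Columns of the tables were all mapped by name.

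Each comparison of 2 groups was fitted on its own 6 libraries and the interaction on all 12, from the deposited counts, with edgeR 4.0.16 in R 4.3.3 (filterByExpr, TMM, robust glmQLFit and glmQLFTest), Benjamini-Hochberg adjusted over all genes tested. The fit was tested on simulated data. Alternatives used DESeq2 1.42.0, limma 3.58.1 (voom, and log2 of deposited CPM plus 1 or 0.1), other filters, scalings, controls and left-out libraries. Genes named are the 6 factors, up to 6 genes per list by smallest p, and the 3 genes most correlated with each factor. The members and lists were chosen with earlier results of these data known. Positions come from GENCODE M21 and sequences from RefSeq (GRCm38.p6) and the GENCODE transcripts. Some genes that the rule names are not reported here.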

Additional observations from a re-analysis of the deposited data

How the results depend on the processing

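Of 473 alternative values of the 6 factors, 442 kept their direction and their side of the threshold, 11 reversed in sign, 11 lost a call and 9 gained one. The count of factors called between genotypes in NK1.1- cells was 2, then 3 with DESeq2 (Sox13 added), 2 on all 12 libraries (Tox2 and Sox13), 1 (Tox2) with the ratio of Y-linked to Xist RNA as a covariate or against WT replicate 1 alone, which is assumed to vary like the knock-in, and 1 to 2 with a library left out. In NK1.1+ cells it was 0, and 1 (Tcf7) with no low-count filter. Between pools it stayed at 5 in WT and ran from 4 to 6 with a library left out in miR-155KI. In the interaction it was 0, then 1 with DESeq2 (Sox13; the Sox4 adjusted p was not given), 2 with no filter (Sox4 and Sox13) and 0 to 1 with a library left out. The causes were not tested. The reversed values all lay near 0 or rested on 1 library. Sox13 between genotypes in NK1.1+ cells was -0.0055 with voom, -0.11 with the covariate, -0.029 with a single WT control (replicate 1), and -0.13 to 0.16 with a library left out. Sox4 ran from -0.0094 to 2.47 in that comparison and from -2.14 to 0.37 between miR-155KI pools with a library left out. The interaction of Tox ran from -0.19 to 0.052 and that of Tcf7 from -0.12 to 0.65.

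Deviations from the group means were correlated between samples of 1 number. Between WT pools r was 0.293, 0.243 and 0.0989, against -0.267 to 0.111 for unlike numbers. Between miR-155KI pools r was 0.117, 0.0689 and 0.0611. Between genotypes r was 0.0559, 0.116 and 0.0816 in NK1.1- cells and -0.0743, -0.0075 and 0.0022 in NK1.1+ cells. WT replicate 1 had low Xist RNA in both pools (12.6 and 11.4 CPM), so in WT the numbers may mark shared mice. No source states this, and the main fits did not pair the libraries. Each library correlated best with its own number between miR-155KI pools and between genotypes in NK1.1- cells. With the replicate block the factors called were still 2, 0, 5, 5 and 0 in the 5 comparisons, Tox2 at 1.17 and Lef1 at 0.58 in NK1.1- cells, and the calls over all genes went from 457 to 737, 3 to 7, 2819 to 4053, 1821 to 1838 and 4 to 23. Calls over all genes went from 457 to 960 with DESeq2, 1048 with no filter, 139 on all 12 libraries, 115 with the covariate and 157 with 1 control in NK1.1- cells, from 3 to 316 with DESeq2, 282 with no filter and 60 on all 12 libraries in NK1.1+ cells, and from 4 to 139 with DESeq2 and 162 with no filter in the interaction. With 21 to 38 Sox4 reads in each WT NK1.1+ library, small differences of that gene could not be resolved.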
